A study of Homo sapiens with 18 samples.

Results

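The genes described here are 10 genes of cellular iron handling: TFRC and SLC11A2 (uptake), FTH1, FTL and NCOA4 (storage and its release), SLC40A1 (export), IREB2, ACO1 and FBXL5 (sensing) and HMOX1 (haem breakdown). They were taken by gene symbol from 2 count tables of 39368 genes each, and all 10 had a row in both. The list was chosen by measured values in one respect: TFRC counts in Kelly moved in opposite directions with the 2 hairpins. The Kelly values of TFRC are therefore given as a description with no test, and counts of Kelly contrasts cover the other 9 genes.

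RNA sequencing was done on BE2C and Kelly, established human neuroblastoma lines with MYCN amplification. Each line received the lentiviral vector pLKO-GFP (control) or 1 of 2 short hairpin RNAs against AHR, shAhR-1 or shAhR-2. The product of AHR, the aryl hydrocarbon receptor, is a transcription factor switched on by small-molecule ligands, and the series title asks how it relates to dedifferentiation in such tumours. There were 3 libraries in each of 6 groups, 18 in all. Nothing in the labels says that replicates are separate cultures, so the p-values reflect a spread that may be technical. All groups had been through viral vector delivery, each hairpin is 1 sequence, and no hairpin sequence was given in the sources used here.

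A cell takes up iron bound to transferrin through the transferrin receptor, moves it out of the endosome through the transporter encoded by SLC11A2, stores it in ferritin shells of heavy and light chains, and exports it through ferroportin. Iron regulatory proteins bind a stem-loop called the iron-responsive element (IRE) when iron is scarce. Binding in the 3′ untranslated region of TFRC mRNA slows its decay, whereas binding in the 5′ untranslated region of ferritin or ferroportin mRNA blocks translation. Dividing tumour cells have a high demand for transferrin iron, and raised serum ferritin is a known feature of advanced neuroblastoma. Only mRNA was measured here, not protein, iron or binding.

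The stem-loops are shown because they set TFRC apart from the ferritin genes in how iron acts on the transcript. The principal transcript of each gene in GENCODE 29 (GRCh38) was searched on its sense strand for a bulged C followed by 5 bases. The loop came next, CAGTG and 1 base other than G, and then 5 more bases. All 5 arm positions had to pair (G with T allowed). TFRC held 4 matches, all in its 3′ untranslated region. FTH1, FTL and SLC40A1 held 1 each, in the 5′ untranslated region, and the other 6 genes held none. Each window is 30 bases, 5′ to 3′, with the bulged C and the loop in capitals:
TFRC match 1 (chr3:196050978-196051007, minus strand): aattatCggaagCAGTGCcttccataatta
TFRC match 2 (chr3:196050574-196050603, minus strand): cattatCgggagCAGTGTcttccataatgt
TFRC match 3 (chr3:196050509-196050538, minus strand): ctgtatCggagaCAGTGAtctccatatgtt
TFRC match 4 (chr3:196050462-196050491, minus strand): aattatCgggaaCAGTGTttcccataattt
FTH1 (chr11:61967573-61967602, minus strand): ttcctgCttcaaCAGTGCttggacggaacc
FTL (chr19:48965335-48965364, plus strand): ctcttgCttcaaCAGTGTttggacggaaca
SLC40A1 (chr2:189580660-189580689, minus strand): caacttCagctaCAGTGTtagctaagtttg
The FTH1 and FTL windows carry the same 5-base arm before the loop (ttcaa). Of 19659 protein-coding genes searched the same way, 94 (0.478%) held a match in either untranslated region and 2 held 3 or more. A match is a description of letters, and a gene without one may still carry a stem-loop of another form.

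**Figure D1:**
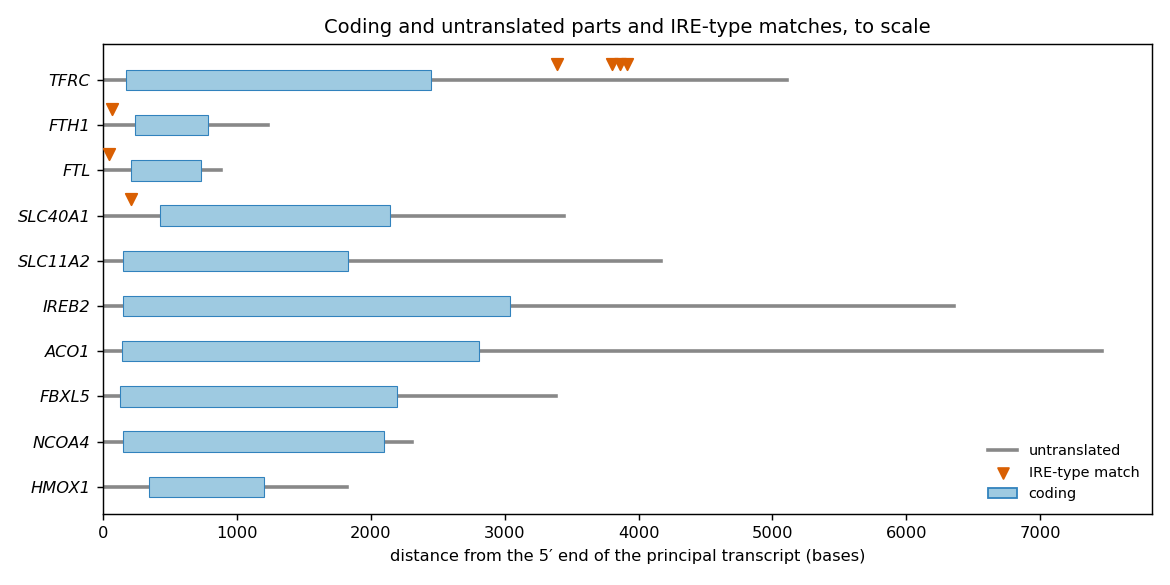
Each line is the principal transcript of 1 gene, drawn to scale in bases from its 5′ end, with the coding part as a box, untranslated parts as a line and IRE-type matches as triangles. The 4 TFRC matches lie in the 3′ untranslated region, and the single matches of FTH1, FTL and SLC40A1 lie before the coding part.

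Library totals ran from 32799682 to 45469353 counts. AHR, the targeted gene, was scarce throughout. In BE2C its counts were 4, 4 and 6 in control, 8, 0 and 0 with shAhR-1 and 0, 0 and 0 with shAhR-2. In Kelly they were 4, 26 and 29 in control, 18, 11 and 22 with shAhR-1 and 0, 4 and 0 with shAhR-2. The libraries labelled shAhR-1 thus overlapped the controls of both lines in AHR counts. Every direction given for them is a direction in libraries carrying that label. In Kelly the highest shAhR-2 library also matched the lowest control, at 4 counts each, so shAhR-2 overlapped control there too. Replicate 1 of BE2C shAhR-2 stood apart from its group: its mean chi-square per gene against replicates 2 and 3 was 20.9 and 22.8, where all other replicate pairs lay between 2.8 and 6.6. Its mitochondrial share was also the highest, at 25.1% of counts. That share moved with whole groups too: it was 18.8% to 19.4% in BE2C control against 24.3% to 24.9% in the libraries labelled shAhR-1, and 14.5% to 15.6% in Kelly control against 17.4% to 17.7%. Without the mitochondrial genes no call of the 10 genes changed. All 10 markers of adrenergic neuroblastoma were present in every group. Their sum ran from 5649 to 5837 CPM (counts scaled to library size) in BE2C control, 5096 to 5173 with the label shAhR-1 and 2959 to 2978 with shAhR-2. In Kelly it ran from 10030 to 10760 in control, 5426 to 5552 with the label shAhR-1 and 6190 to 6276 with shAhR-2. MYCN averaged 2268, 1897 and 1159 CPM in BE2C control, shAhR-1 and shAhR-2 and 4693, 2353 and 3080 CPM in Kelly, and the part of these shifts in the values below was not tested. Summed macrophage markers stayed at or below 1.27 CPM, and erythroid markers at or below 0.839 CPM.

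TFRC (chromosome 3, 196027183 to 196082189, minus strand), the transferrin receptor, was the gene on which the list was built. In BE2C control libraries it stood at 1147, 1242 and 1139 CPM, in the libraries labelled shAhR-1 at 612, 628.5 and 599, and with shAhR-2 at 431, 497 and 536. Every hairpin library of BE2C lay far below every control library. Such separation from control was common among all genes tested, at 57.7% with the label shAhR-1 and 77.1% with shAhR-2 in BE2C. In Kelly the shares were 63.2% and 77.2%, and all of these shares apply to the genes below. TFRC fell by 0.94 ± 0.045 (log2, SE) with shAhR-1 (edgeR adjusted p = 2.41e-18) and by 1.26 ± 0.045 with shAhR-2 (edgeR adjusted p = 1.76e-22). Without the library that stood apart, replicate 1, the shAhR-2 value was -1.185.

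In Kelly, TFRC stood at 477, 501 and 486 CPM in control, at 273, 281 and 280 in the libraries labelled shAhR-1 and at 860.5, 866 and 879 with shAhR-2. The Kelly groups did not overlap: the libraries labelled shAhR-1 lay below control and the shAhR-2 libraries above it, by -0.81 and 0.83 on the log2 scale. These are the values that chose the list and carry no test. The BE2C values were not used in that choice, and there both hairpins gave lower TFRC, with 613 ± 14.7 CPM (SD, n = 3) under shAhR-1 and 488 ± 53.2 under shAhR-2 against 1176 ± 57.5 in control. In BE2C the shAhR-1-labelled libraries were higher than the shAhR-2 libraries by 0.31 ± 0.045 (edgeR adjusted p = 1.62e-07).

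SLC11A2 (chromosome 12, 50979401 to 51028566, minus strand) encodes the divalent metal transporter that carries iron out of the endosome. Its BE2C levels were 121, 114 and 116 CPM in control, 129, 127.5 and 133 with the label shAhR-1 and 132, 138 and 139.5 with shAhR-2. In Kelly they were 74.0, 76.4 and 76.0 in control, 90.9, 97.1 and 94.6 with the label shAhR-1 and 103, 103 and 101 with shAhR-2. All 12 hairpin libraries lay above the controls of their own line. No overlap with control, in either direction, was found for 57.7% to 77.2% of all genes, depending on the contrast. SLC11A2 rose in all 4 contrasts, by 0.15 ± 0.036 and 0.24 ± 0.036 in BE2C (edgeR adjusted p = 0.000696 and 4.61e-07) and by 0.33 ± 0.036 and 0.44 ± 0.036 in Kelly (edgeR adjusted p = 4.21e-11 and 8.24e-16), shAhR-1 first. SLC11A2 was thus higher both in the 3 hairpin groups where TFRC was lower and in Kelly shAhR-2, where TFRC was higher.

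Of 4 start sites of SLC11A2, 1 carried 3 copies of GCGTG, 1 carried 1 copy and the others none. GCGTG is the core of the xenobiotic response element that the aryl hydrocarbon receptor binds with its partner ARNT. The 250 bases before the start with 3 copies (RefSeq, GRCh38.p14, chr12:51026385-51026634, minus strand) are shown because AHR is the factor the hairpins were aimed at, with the core on either strand in capitals:
SLC11A2: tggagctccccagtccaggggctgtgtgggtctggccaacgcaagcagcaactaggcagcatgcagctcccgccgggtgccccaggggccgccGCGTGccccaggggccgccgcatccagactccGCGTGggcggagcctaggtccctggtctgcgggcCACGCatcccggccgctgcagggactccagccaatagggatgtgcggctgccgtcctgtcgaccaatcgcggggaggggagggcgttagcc
Promoter windows were at hand for 8 of the 10 genes, 13 windows in all (not FTH1 and HMOX1). The core occurred in 5 of them (of FTL, SLC11A2, IREB2 and ACO1), against 32.2% of all 35116 promoter windows of that length. The window printed held the most copies of the 13, and the share of all windows with 3 copies was not counted. The E-box CACGTG, a motif that MYC proteins bind, occurred in 1 window (6.34% of all), and TGACNNNGC, the antioxidant response element, in 1 (10.9% of all), both in the FBXL5 window. No binding was measured.

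FTH1 (chromosome 11, 61959718 to 61967660, minus strand) encodes the heavy chain of ferritin, which oxidises iron for storage. It stood at 53.3, 47.8 and 48.5 CPM in BE2C control, 57.9, 60.2 and 55.2 in the libraries labelled shAhR-1 and 43.8, 41.7 and 37.6 with shAhR-2. In Kelly it stood at 140, 124 and 138 in control, 151.5, 160.5 and 153 with the label shAhR-1 and 60.9, 61.4 and 60.8 with shAhR-2. In both lines the order was the same: shAhR-1 libraries above control, shAhR-2 libraries below it, with no overlap. Lack of overlap with control was common, at 57.7% to 77.2% of all genes, depending on the contrast. FTH1 rose by 0.21 ± 0.055 in BE2C and 0.22 ± 0.036 in Kelly in the libraries labelled shAhR-1 (edgeR adjusted p = 0.00167 and 8.09e-07). With shAhR-2 it fell by 0.27 ± 0.056 in BE2C and 1.14 ± 0.038 in Kelly (edgeR adjusted p = 6.02e-05 and 1.14e-31). FTH1 counts are uncertain: 56.65% of its exonic bases are shared with BEST1 on the opposite strand. How the counting treated strand is not stated in the labels or notes. BEST1 averaged 2.03, 3.50 and 3.18 CPM in BE2C control, shAhR-1 and shAhR-2 and 0.609, 1.70 and 3.785 CPM in Kelly. Its part in the FTH1 values was not tested. Rows of 25 FTH1 pseudogenes held 1.01% to 3.54% as many counts as FTH1, FTH1P10 and FTH1P3 the most. How reads that match both gene and pseudogene were counted is not stated, so these shares do not bound any loss.

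FTL, the light chain of ferritin (chromosome 19, 48965301 to 48966878, plus strand), fell with shAhR-2 in both lines. BE2C levels were 307, 318 and 307 CPM in control, 296, 304 and 298 with the label shAhR-1 and 164, 157 and 166.5 with shAhR-2. Kelly levels were 523.5, 499 and 499 in control, 436, 451 and 460 with the label shAhR-1 and 268, 286 and 268 with shAhR-2. The shAhR-2 libraries lay well below the others in each line. The fall was 0.92 ± 0.031 in BE2C (edgeR adjusted p = 3.55e-23) and 0.90 ± 0.029 in Kelly (edgeR adjusted p = 2.59e-32). In the libraries labelled shAhR-1, FTL fell in Kelly by 0.17 ± 0.028 (edgeR adjusted p = 8.3e-07), while the BE2C value was -0.06 ± 0.031 and did not pass (edgeR adjusted p = 0.129). Rows of 16 FTL pseudogenes held at most 0.356% as many counts as FTL, FTLP3 and FTLP12 the most, which likewise does not bound any loss.

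NCOA4 (chromosome 10, 46005088 to 46030714, minus strand) encodes the receptor that carries ferritin to autophagosomes, from which its iron is released. It stood at 189, 211 and 194 CPM in BE2C control and at 124, 126 and 122 with shAhR-2, a fall of 0.67 ± 0.037 (edgeR adjusted p = 2.09e-17). In Kelly control it stood at 145.4, 145.2 and 143 CPM and with shAhR-2 at 131, 134 and 134, a fall of 0.12 ± 0.031 (edgeR adjusted p = 0.000344). In the libraries labelled shAhR-1 it ran from 189 to 193 CPM in BE2C and from 145 to 150 CPM in Kelly and overlapped control in both lines, with log2 values of -0.05 ± 0.036 and 0.04 ± 0.031 that did not pass (edgeR adjusted p = 0.23 and 0.342). The 3 storage genes thus all fell with shAhR-2 in both lines. Of all genes, 37.2% fell in BE2C and 38.2% in Kelly, and the share that fell in both lines was not counted.

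SLC40A1 (chromosome 2, 189560579 to 189583758, minus strand) encodes ferroportin, the only known iron exporter of mammalian cells. In BE2C it was scarce, with counts of 31, 42 and 16 in control, 22, 12 and 12 with the label shAhR-1 and 220, 228 and 140 with shAhR-2. As CPM these were 0.735 ± 0.312 (SD, n = 3), 0.379 ± 0.117 and 4.396 ± 1.21. The shAhR-2 libraries lay above all others, and the rise was 2.58 ± 0.28 (edgeR adjusted p = 5.27e-10). Kelly libraries held 5.57, 6.70 and 6.525 CPM in control, 4.855, 4.76 and 4.80 with the label shAhR-1 and 9.295, 8.83 and 9.52 with shAhR-2, without overlap between groups. SLC40A1 rose in Kelly with shAhR-2 by 0.55 ± 0.11 (edgeR adjusted p = 1.24e-05) and fell in the libraries labelled shAhR-1 by 0.38 ± 0.12 (edgeR adjusted p = 0.00514). The BE2C fall of 0.94 ± 0.37 in the libraries labelled shAhR-1 (edgeR adjusted p = 0.031) rests on few counts in overlapping groups. Its adjusted p by edgeR was 0.21 without control replicate 2, 0.0669 without control replicate 1, 0.0891 without shAhR-1 replicate 2 and 0.108 without shAhR-1 replicate 3. It was 0.0623 with only the compared groups in the fit and 0.0572 with halved counts.

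Macrophages are rich in ferroportin and haem oxygenase, so their markers were set beside these genes. The 7 macrophage markers summed to between 0.769 and 1.05 CPM in BE2C shAhR-2 and to between 0.25 and 1.27 CPM in BE2C control, with CD163 at 0 in the former and AIF1 and TYROBP at 0 in the latter. The 8 fibroblast markers summed to between 179 and 192 CPM in BE2C shAhR-2 and to between 96.4 and 101 CPM in control, with FAP at 0 in control and COL1A2 at 0 in shAhR-2. In Kelly they summed to between 91.1 and 97.8 CPM in control, 52.2 and 60.5 CPM with the label shAhR-1 and 80.3 and 82.5 CPM with shAhR-2. Their part in the values of SLC40A1 and HMOX1 was not tested. In bulk libraries, fewer cells of a type and less RNA per cell cannot be told apart.

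IREB2 (chromosome 15, 78437431 to 78501456, plus strand) encodes iron regulatory protein 2, which is itself degraded when iron is plentiful. BE2C levels were 174, 181 and 179 CPM in control, 188, 191 and 192 with the label shAhR-1 and 217, 225 and 222 with shAhR-2. Kelly levels were 138, 146 and 145 in control, 159.5, 163 and 163.5 with the label shAhR-1 and 184, 184 and 185 with shAhR-2. The 3 groups were ordered alike in both lines with no overlap, control lowest and shAhR-2 highest. Depending on the contrast, 57.7% to 77.2% of all genes did not overlap control either. IREB2 rose in all 4 contrasts, with shAhR-2 by 0.32 ± 0.031 in BE2C and 0.36 ± 0.031 in Kelly (edgeR adjusted p = 3.31e-11 and 5.25e-15). In the libraries labelled shAhR-1 the rise was 0.18 ± 0.031 in Kelly (edgeR adjusted p = 1.38e-06) and 0.09 ± 0.031 in BE2C (edgeR adjusted p = 0.0127). The BE2C shAhR-1 call was lost without control replicate 1 (edgeR adjusted p = 0.0679), shAhR-1 replicate 2 (0.0569) or shAhR-1 replicate 3 (0.0857).

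ACO1 (chromosome 9, 32384603 to 32454769, plus strand) encodes iron regulatory protein 1, which serves as the cytosolic aconitase when it holds an iron-sulfur cluster. In BE2C it stood between 12.7 and 15.8 CPM in all 9 libraries, and neither hairpin passed the test, at 0.14 ± 0.084 with the label shAhR-1 and -0.00 ± 0.084 with shAhR-2 (edgeR adjusted p = 0.175 and 0.963). In Kelly it stood at 30.7, 31.5 and 27.8 CPM in control, 27.9, 26.3 and 29.15 with the label shAhR-1 and 15.65, 16.4 and 16.1 with shAhR-2. Only the shAhR-2 libraries of Kelly lay apart from control. The fall there was 0.91 ± 0.064 (edgeR adjusted p = 3.84e-18). The Kelly shAhR-1 value was -0.11 ± 0.062 (edgeR adjusted p = 0.135) and passed only without control replicate 3 (0.0425).

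FBXL5 (chromosome 4, 15604539 to 15681679, minus strand) encodes the iron-sensing subunit of the ubiquitin ligase that marks IRP2 for degradation. BE2C libraries held 46.7, 48.9 and 48.1 CPM in control, 49.6, 54.4 and 51.3 with the label shAhR-1 and 59.2, 56.3 and 59.0 with shAhR-2. Kelly libraries held 36.8, 35.7 and 34.7 in control, 47.95, 46.8 and 46.5 with the label shAhR-1 and 41.0, 47.7 and 44.3 with shAhR-2. No hairpin library overlapped its controls, as was so for 57.7% to 77.2% of all genes, depending on the contrast. FBXL5 rose with shAhR-2 by 0.29 ± 0.048 in BE2C and 0.31 ± 0.051 in Kelly (edgeR adjusted p = 1.79e-06 and 5.96e-07) and with the label shAhR-1 in Kelly by 0.40 ± 0.052 (edgeR adjusted p = 1.84e-09). The BE2C shAhR-1 value, 0.11 ± 0.048, did not pass (edgeR adjusted p = 0.0584), and it passed with a minimum mean of 1 CPM (0.0268), with only the compared groups (0.0487) and without control replicate 2 (0.0477).

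HMOX1 (chromosome 22, 35380361 to 35394214, plus strand), the inducible haem oxygenase that frees iron from haem, moved in opposite directions in the lines with shAhR-2. BE2C libraries held 2.65, 3.08 and 2.69 CPM in control, 2.89, 3.88 and 2.45 with the label shAhR-1 and 7.64, 6.06 and 6.07 with shAhR-2. Kelly libraries held 10.6, 9.19 and 11.65 in control, 5.11, 6.96 and 6.50 with the label shAhR-1 and 4.11, 2.42 and 3.37 with shAhR-2. All shAhR-2 libraries of BE2C lay above control and all those of Kelly below it. Of all genes, 77.1% in BE2C and 77.2% in Kelly also lay apart from control with shAhR-2. The rise in BE2C was 1.24 ± 0.16 (edgeR adjusted p = 2.87e-08) and the fall in Kelly 1.67 ± 0.14 (edgeR adjusted p = 6.8e-16). In the libraries labelled shAhR-1, HMOX1 fell in Kelly by 0.75 ± 0.13 (edgeR adjusted p = 1.44e-06), and the BE2C value was 0.13 ± 0.17 (edgeR adjusted p = 0.577).

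**Figure D2:**
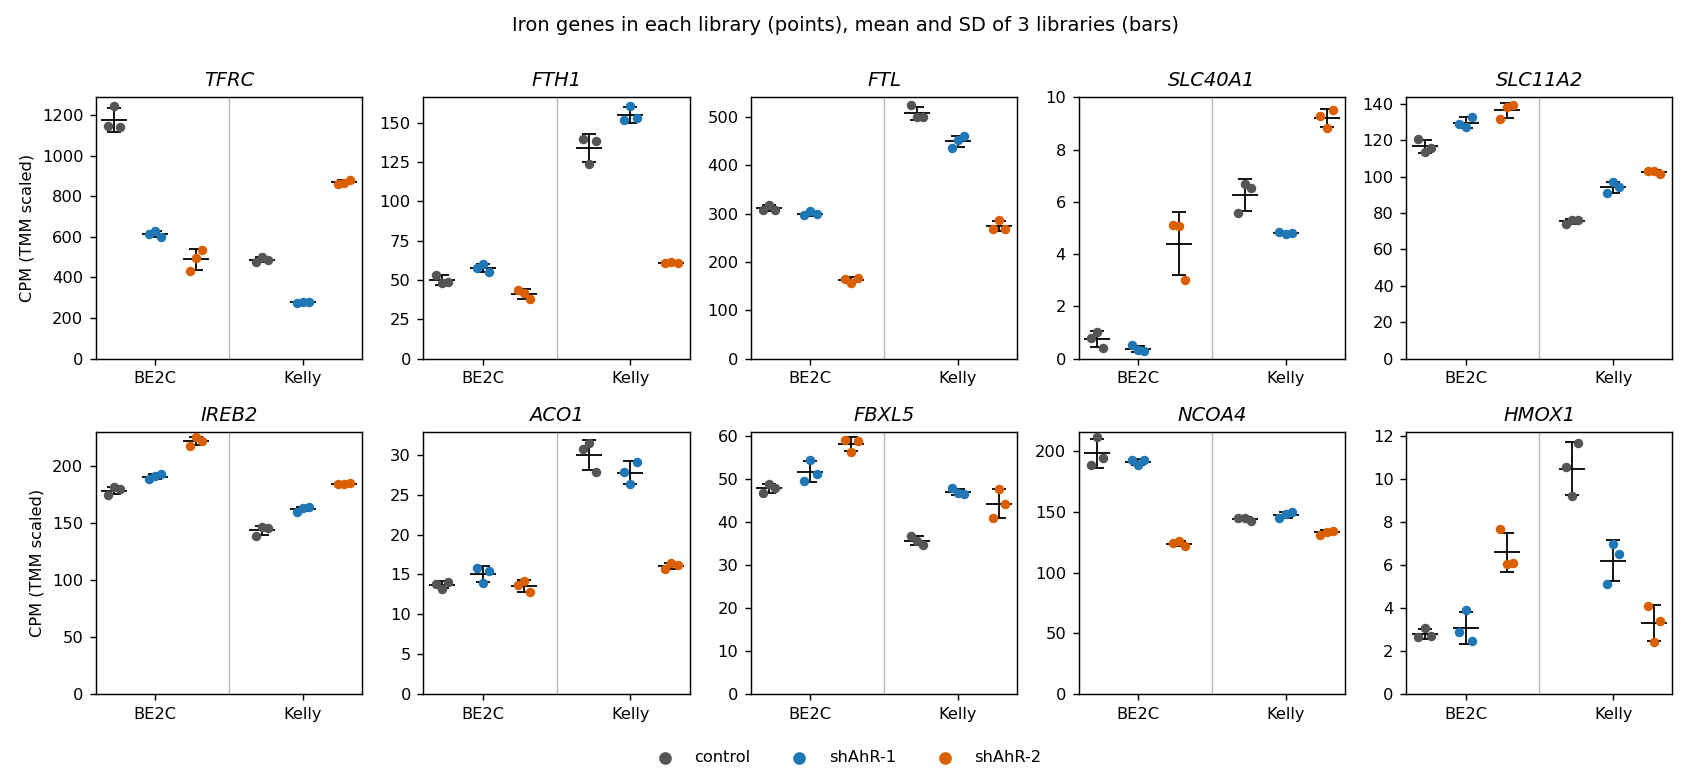
Each panel is 1 gene with CPM on the vertical axis from 0; points are libraries, bars the mean and SD of 3 libraries, and colours the control, shAhR-1 and shAhR-2 groups of each line. TFRC in Kelly shAhR-2 (860.5 to 879 CPM) lies above its controls while TFRC in BE2C shAhR-2 (431 to 536 CPM) lies below them, and HMOX1 shows the reverse.

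Read against the background, these calls were common. In BE2C with the label shAhR-1, 3 of the 10 genes rose and 2 fell, where 25.2% of all 15732 genes tested rose and 27.1% fell (52.3% in all). That count of 5 was 3 without control replicate 1, shAhR-1 replicate 2 or shAhR-1 replicate 3. With shAhR-2 in BE2C, 5 rose and 4 fell (ACO1 did not pass), against 38% and 37.2% of all genes (75.1% in all). In Kelly, counting the 9 genes other than TFRC, 4 rose and 3 fell with the label shAhR-1 against 29.6% and 31% of all 15871 genes (60.5% in all). With shAhR-2, 4 of the 9 rose and 5 fell, against 37.2% and 38.2% (75.4% in all). All 10 genes passed the filter on low counts in both lines. The median absolute log2 change of the counted genes was 0.13 in BE2C shAhR-1 (0.29 over all genes), 0.50 in BE2C shAhR-2 (0.59), 0.22 in Kelly shAhR-1 (0.32) and 0.55 in Kelly shAhR-2 (0.55). SLC11A2 and IREB2, 2 of the 9 genes other than TFRC (22.2%), were called in the same direction in all 4 contrasts, and so were 2234 of the 14680 genes tested in both lines (15.2%). The 2 hairpin contrasts of a line share their controls. Without replicate 1 of BE2C shAhR-2, the same 9 genes were called in BE2C shAhR-2, with FTH1 at -0.33, FTL at -0.94, NCOA4 at -0.68, SLC40A1 at 2.45, SLC11A2 at 0.25, IREB2 at 0.33, FBXL5 at 0.27 and HMOX1 at 1.11.

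**Figure D3:**
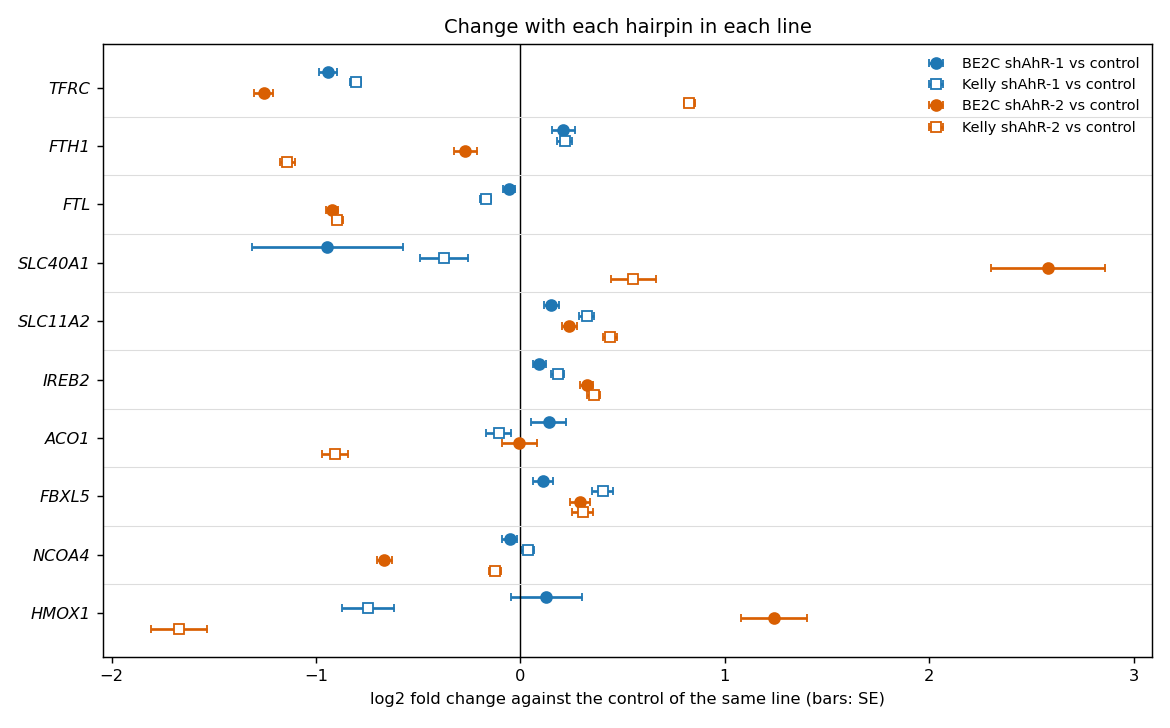
The horizontal axis is the log2 fold change against the control of the same line with its SE, for each gene and each of 4 contrasts (filled circles BE2C, open squares Kelly, blue shAhR-1, orange shAhR-2). SLC11A2, IREB2 and FBXL5 lie to the right in all 4 contrasts (FBXL5 did not pass in BE2C shAhR-1), FTL and NCOA4 fell with shAhR-2 in both lines, and TFRC and HMOX1 lie on opposite sides in the lines with shAhR-2; TFRC in Kelly was not tested.

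The hairpins were also compared directly. In BE2C, 4 of the 10 genes were higher in the libraries labelled shAhR-1 than with shAhR-2 and 5 lower, against 35.9% and 36.5% of all genes (72.4% in all). In Kelly, 5 of 9 were higher and 3 lower, against 39.3% and 38.2% of all genes (77.4% in all). The 3 storage genes were higher in the libraries labelled shAhR-1 in both lines: FTH1 by 0.48 ± 0.055 in BE2C and 1.36 ± 0.038 in Kelly, FTL by 0.87 ± 0.031 and 0.72 ± 0.029, and NCOA4 by 0.61 ± 0.037 and 0.16 ± 0.031. The largest of their 6 adjusted p-values by edgeR was 9.43e-06. SLC40A1 was lower there, by -3.52 ± 0.31 in BE2C and -0.93 ± 0.11 in Kelly (edgeR adjusted p = 4.09e-12 and 2.94e-10), and so was IREB2, by -0.23 ± 0.031 and -0.18 ± 0.031 (edgeR adjusted p = 5.29e-08 and 1.4e-06). HMOX1 differed in opposite directions, by -1.12 ± 0.16 in BE2C and 0.93 ± 0.14 in Kelly (edgeR adjusted p = 2.03e-07 and 1e-07). SLC11A2 differed by -0.09 ± 0.036 in BE2C, a call that was lost without shAhR-1 replicate 1 or 2 or shAhR-2 replicate 2 or 3 (edgeR adjusted p 0.103 to 0.156) or with no filter on low counts (0.0779), and by -0.11 ± 0.036 in Kelly, lost without shAhR-1 replicate 1 (edgeR adjusted p = 0.0521).

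Whether a hairpin acted differently in the lines was tested in 1 fit of all 18 libraries, as the BE2C change less the Kelly change. For shAhR-2, 6 of the 9 genes other than TFRC differed, 4 higher and 2 lower in BE2C, where 28.8% of all 17136 genes were higher and 25.8% lower (54.7% in all). HMOX1 differed the most among them, by 2.90 ± 0.23 (edgeR adjusted p = 1.41e-15), followed by SLC40A1 at 2.01 ± 0.27 (edgeR adjusted p = 1.26e-08). ACO1 differed by 0.89 ± 0.10 and FTH1 by 0.85 ± 0.069 (edgeR adjusted p = 3.98e-10 and 5.81e-15). FTH1 had fallen further in Kelly, and ACO1 had fallen in Kelly and not passed in BE2C. NCOA4 differed by -0.56 ± 0.048 (edgeR adjusted p = 3.57e-14), having fallen further in BE2C, and SLC11A2 by -0.22 ± 0.051 (edgeR adjusted p = 0.000265). The TFRC difference was -2.10, with no test. Without replicate 1 of BE2C shAhR-2, HMOX1 differed by 2.77, SLC40A1 by 1.88, ACO1 by 0.87, FTH1 by 0.80, NCOA4 by -0.57 and SLC11A2 by -0.20, all 6 still called. FTL gave -0.05 ± 0.043 (edgeR adjusted p = 0.4), IREB2 -0.05 ± 0.043 (0.326) and FBXL5 -0.03 ± 0.071 (0.75), none of which passed, and this does not show that they acted alike. FTL passed with no filter on low counts (edgeR adjusted p = 0.0145), and IREB2 passed with no filter (0.0242) and with a minimum mean of 1 CPM (0.0352).

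For the label shAhR-1, 2 of the 9 genes were higher and 2 lower in BE2C, against 17.5% and 18.2% of all genes (35.7% in all). HMOX1 differed by 0.88 ± 0.23 (edgeR adjusted p = 0.00198), FBXL5 by -0.29 ± 0.072 (edgeR adjusted p = 0.00123), SLC11A2 by -0.17 ± 0.051 (edgeR adjusted p = 0.00797) and FTL by 0.12 ± 0.043 (edgeR adjusted p = 0.0209). The FTL call was lost with RLE size factors (edgeR adjusted p = 0.054), with no filter (0.11), with a minimum mean of 1 CPM (0.0516) and without BE2C shAhR-1 replicate 2 (0.0522), Kelly control replicate 1 (0.0795) or Kelly shAhR-1 replicate 1 (0.0716). FTH1 gave a difference of 7e-04 ± 0.066 (edgeR adjusted p = 1). ACO1, at 0.25 ± 0.10 (edgeR adjusted p = 0.0514), passed with halved counts (0.0438) and without BE2C control replicate 3 (0.0481), BE2C shAhR-1 replicate 2 (0.0246), Kelly control replicate 3 (0.024) or Kelly shAhR-1 replicate 3 (0.0362), and IREB2, at -0.08 ± 0.044, passed with a minimum mean of 1 CPM (0.0383) and by DESeq2 (0.0253).

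Between the controls of the lines, all 9 genes other than TFRC differed, 4 higher and 5 lower in BE2C, where 37.2% of all genes were higher and 39% lower (76.2% in all). SLC11A2 (0.63), IREB2 (0.32), FBXL5 (0.42) and NCOA4 (0.46) were higher in BE2C, and the TFRC difference was 1.27, with no test. The ferritin chains and the exporter were lower in BE2C: FTH1 by -1.42 ± 0.048 (edgeR adjusted p = 3.34e-30), FTL by -0.71 ± 0.030 and SLC40A1 by -3.08 ± 0.21. ACO1 (-1.13) and HMOX1 (-1.90) were lower too. Each line is its own table, so line and preparation cannot be told apart.

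To compare levels between genes, CPM was divided by the length of the principal transcript in kb. FTL was the highest of the 10 in every group, from 185 ± 5.63 CPM per kb in BE2C shAhR-2 to 578 ± 15.99 in Kelly control. In BE2C control the order was FTL (354), TFRC (230), NCOA4 (85.9), FTH1 (40.6), IREB2 (28.1), SLC11A2 (28.0), FBXL5 (14.2), ACO1 (1.83), HMOX1 (1.54) and SLC40A1 (0.214) CPM per kb. The libraries of neighbours in that order did not overlap except those of IREB2 and SLC11A2. In Kelly control FTH1 (109) came before TFRC (95.4), and the order of these 2 was turned when the length of all exons was used. In Kelly shAhR-2 TFRC (170 CPM per kb) stood above NCOA4 (57.7) and FTH1 (49.6). There SLC40A1 (2.68) was not the lowest, which was HMOX1 (1.81), overlapping ACO1 (2.15). SLC40A1 was the lowest in the other 5 groups. The place of FTH1 is uncertain, as 56.65% of its exonic bases are shared with BEST1 and the strand setting is not stated.

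Ratios within a library do not depend on its scaling. The ratio of FTH1 to FTL per kb was 0.115 in BE2C control, 0.138 with the label shAhR-1 and 0.18 with shAhR-2, and 0.188, 0.247 and 0.159 in Kelly. Against control the log2 ratio differed by 0.27, 0.65 and 0.39 in BE2C shAhR-1, BE2C shAhR-2 and Kelly shAhR-1, and by -0.24 in Kelly shAhR-2. Each of the 4 had no overlap with control (2-sided exact permutation p = 0.1, the smallest that 3 against 3 allows; 0.114 adjusted over 8 ratio tests). The ratio of heavy to light chain was thus above control in 3 hairpin groups and below it in Kelly shAhR-2. Its level rests on FTH1 counts, which are uncertain because of the exonic bases shared with BEST1. The ratio of IREB2 to ACO1 per kb was 15.3, 14.9 and 19.2 in BE2C and 5.61, 6.85 and 13.5 in Kelly, in the same order of groups. It differed from control by 0.33 in BE2C shAhR-2, 0.29 in Kelly shAhR-1 and 1.27 in Kelly shAhR-2 (2-sided exact permutation p = 0.1 each), and by -0.04 in BE2C shAhR-1 (2-sided exact permutation p = 0.5).

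The ratio of the receptor to the ferritin heavy chain was added after the values had been seen and, as it rests on TFRC, has no test. It was 5.67 in BE2C control and 0.877 in Kelly control, per kb. In BE2C it was 2.55 with the label shAhR-1 and 2.86 with shAhR-2, both below control. In Kelly it was 0.431 with the label shAhR-1 and 3.42 with shAhR-2. The uncertainty of FTH1 counts applies to this ratio too.

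**Figure D4:**
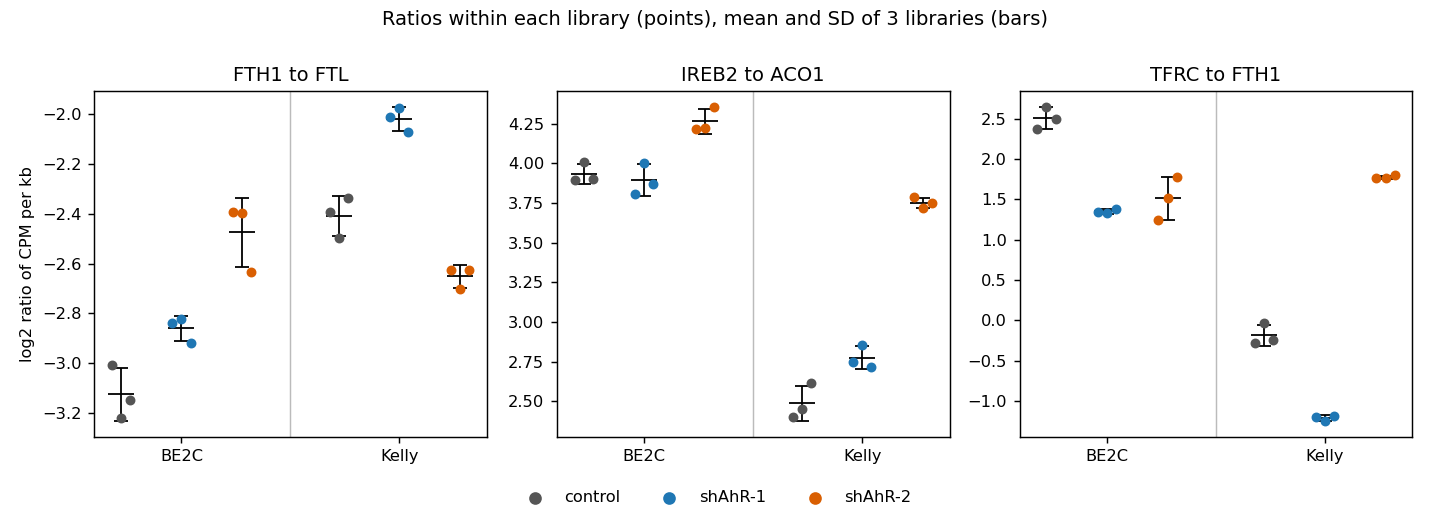
Points are log2 ratios of CPM per kb in single libraries, with the mean and SD of 3 libraries per group, for FTH1 to FTL, IREB2 to ACO1 and TFRC to FTH1; the vertical axes differ and do not start at 0. The Kelly shAhR-2 libraries lie above their controls in IREB2 to ACO1 (ratio 13.5 against 5.61) and in TFRC to FTH1 (3.42 against 0.877).

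Around these 10, 94 further iron genes in 10 lists were read from the same fits. In BE2C, 20 of the 81 tested rose and 25 fell with the label shAhR-1 (25.2% and 27.1% of all genes), and 23 rose and 41 fell with shAhR-2 (38% and 37.2% of all genes). In Kelly, 27 of 78 rose and 25 fell with the label shAhR-1 (29.6% and 31% of all genes), and 28 rose and 35 fell with shAhR-2 (37.2% and 38.2% of all genes). The medians of the lists together were -0.01, -0.14, -0.02 and -0.11 (log2), beside 0.01, 0.03, 0.00 and -0.01 over all genes. Of the 12 genes of uptake and the endosome, 6 rose and 4 fell in BE2C with shAhR-2, and 8 rose and 3 fell in Kelly. In the libraries labelled shAhR-1, 4 rose and 3 fell in BE2C, and 3 rose and 5 fell in Kelly. Of the 20 genes of mitochondrial iron handling and iron-sulfur assembly, 12 fell and 2 rose in BE2C with shAhR-2, and 6 fell and 6 rose in Kelly. In the libraries labelled shAhR-1, 3 of them fell and 6 rose in BE2C, and 4 fell and 10 rose in Kelly. Of the 9 of cytosolic iron-sulfur assembly, 7 fell and none rose in BE2C with shAhR-2, and 5 fell and 3 rose in Kelly. With the label shAhR-1, 6 of these fell and 1 rose in BE2C, and 2 fell and 2 rose in Kelly.

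In these lists 77 genes were tested in both lines, and 2 rose and 6 fell in all 4 contrasts (10.4%, against 15.2% of all genes). The risers were PCBP2, an iron chaperone that loads ferritin (0.31 and 0.19 in BE2C, 0.20 and 0.67 in Kelly, shAhR-1 first), and IBA57, a mitochondrial iron-sulfur assembly factor (0.43, 0.29, 0.69 and 1.06). PCBP1, the related chaperone, fell (-0.31, -0.90, -0.28 and -0.88). RBX1, the RING subunit of the ligase in which FBXL5 works, fell as well (-0.16, -0.29, -0.19 and -0.45). ABCB10, a mitochondrial transporter linked to haem synthesis, fell more in the libraries labelled shAhR-1 (-0.95 and -0.81) than with shAhR-2 (-0.29 and -0.34). Between hairpins it differed by -0.65 ± 0.052 in BE2C and -0.47 ± 0.057 in Kelly (edgeR adjusted p = 3.62e-13 and 2.06e-10). MMS19, of the cytosolic iron-sulfur targeting complex, fell too (-0.16, -0.42, -0.44 and -0.25). EPAS1 and CDC42BPA, whose transcripts are known to carry an IRE, fell as well, EPAS1 by -0.27, -0.44, -0.36 and -0.52 and CDC42BPA by -0.26, -0.45, -0.31 and -0.40. The largest edgeR adjusted p among these 32 values was 0.0163.

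**Figure D5:**
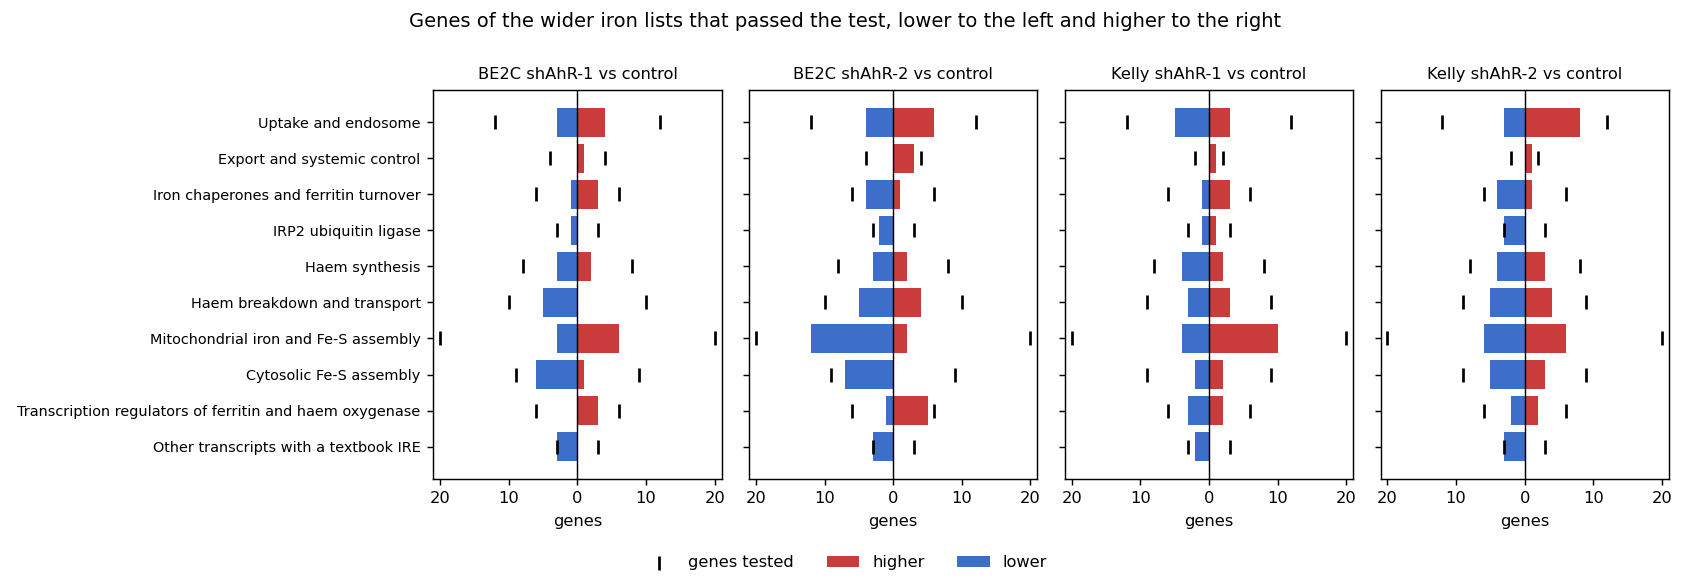
Bars count the genes of each of 10 iron lists called higher (right) or lower (left) in each of 4 contrasts, and ticks mark the number of genes tested. The mitochondrial list has 12 genes lower and 2 higher in BE2C shAhR-2 (37.2% of all genes lower, 38% higher) and 4 lower and 10 higher in Kelly shAhR-1 (31% and 29.6%).

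The genes whose pattern was most like that of TFRC were sought over the 12 hairpin libraries, as log2 CPM less the mean of the line's controls, among genes with a mean of at least 5 CPM in each line. ESRRA (Pearson r = 0.998), ATP6V1B2 (0.996), RAP1GDS1 (0.995), PPM1F (0.995) and RPUSD4 (0.993) came first. Pearson r reads the shape and not the level: ESRRA was above control by 0.32 in Kelly shAhR-1, where TFRC was below it by -0.81. All 5 shared with TFRC a Kelly shAhR-2 group that stood above the other 3, and libraries of a group share their line and hairpin, so r is a description. Among the 10 genes, SLC11A2 gave 0.838, IREB2 0.552, NCOA4 0.37, FBXL5 0.195, FTL -0.366, FTH1 -0.834 and ACO1 -0.951. SLC40A1 and HMOX1 were below the minimum level. Every r here rests in part on the Kelly values of TFRC that chose the list.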

How the data were processed

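Per the labels' protocols, RNA was prepared with miRNeasy and libraries with RNA HyperPrep with RiboErase. The submitters' processing notes name CASAVA 1.8.2, STAR 2.7.9a and GRCh38.p7, and neither they nor the labels name a counting tool, an annotation or a strand setting. The authors deposited raw counts per gene, not normalized, in 1 table for each line, with 32799682 to 45469353 counts per library. Low counts (1 to 20) were even in 68.3% to 72.5% of cases, so each read of a pair may have been counted, which would overstate precision, and halved counts were tried.

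All genes were fitted with edgeR 4.0.16 in R 4.3.3 (filterByExpr, TMM scaling, quasi-likelihood test). A call needed a Benjamini-Hochberg adjusted p under 0.05 over all genes tested. Hairpin contrasts used the 9 libraries of a line, and interactions and the comparison of controls used all 18. The SE of a fold change was computed from its F statistic. Printed CPM values were scaled by TMM over all 18 libraries. Gene positions and transcript lengths came from GENCODE 29 on GRCh38. Ratios were tested by exact permutation over libraries. The members and lists were chosen with earlier results of these data known.

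Named by rule were all 10 members, AHR, the genes of the iron lists called in the same direction in all 4 contrasts (at most 3 risers and 3 fallers a list), the 5 genes most like TFRC, and the 2 pseudogenes of each ferritin chain with most counts. MYCN, BEST1 and markers at 0 were named after their values were seen. Other settings tried were RLE size factors, a total above 0 as the only filter, a mean of at least 1 CPM, a replicate block, each library left out, only the compared groups, DESeq2 1.42.0, no mitochondrial genes, halved counts and, for the ferritin ratio, pseudogene counts added. The edgeR script was tested on simulated data. Python 3.11.15, pandas 2.3.3, scipy 1.17.1 and matplotlib 3.10.9 served for the remaining steps.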

Additional observations from a re-analysis of the deposited data

Results flagged for a closer look

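The change with a hairpin differed between the lines for the following genes, as BE2C change less Kelly change on the log2 scale, by the interaction term of edgeR at an adjusted p below 0.05. With shAhR-2 these were HMOX1 (2.90), SLC40A1 (2.01), ACO1 (0.89), FTH1 (0.85), NCOA4 (-0.56) and SLC11A2 (-0.22). With the label shAhR-1 they were HMOX1 (0.88), FBXL5 (-0.29), SLC11A2 (-0.17) and FTL (0.12). TFRC with shAhR-2 (-2.10) is listed because every BE2C shAhR-2 library lay below its controls and every Kelly shAhR-2 library above them. That difference was not tested, since the Kelly values of TFRC chose the list.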

How the results depend on the processing

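No call of the 10 genes changed direction under any alternative. Of 1370 single-gene values, 1334 were the same, 21 lost the call and 15 gained it. The 1370 include the untested TFRC values of the Kelly contrasts and the interactions. Those were judged by how far the log2 value moved and not by the threshold, so they are not calls that held. Of 197 counts and ratios, 194 stayed within 1.5 times the count or within the spread of the ratio. The exceptions were the count in BE2C shAhR-1, which was 3 instead of 5 without control replicate 1, without shAhR-1 replicate 2 and without shAhR-1 replicate 3 (range 3 to 5 with each library left out). The genes lost there were SLC40A1 and IREB2. With each library left out, counts were 9 to 9 in BE2C shAhR-2 and in Kelly shAhR-2, 7 to 8 in Kelly shAhR-1, 8 to 9 and 7 to 9 between hairpins in BE2C and Kelly and 3 to 5 and 6 to 6 for the interactions. Replicate numbers gave no sign of pairing. Same-numbered libraries of different groups had correlations of deviations from -0.086 to 0.073 in BE2C and from -0.049 to 0.055 in Kelly. Differently numbered libraries had -0.12 to 0.123 and -0.07 to 0.074. Such correlations cannot show whether same-numbered libraries were prepared together. With the replicate block the counts were 5 and 9 in BE2C, 7 and 9 in Kelly, 9 and 8 between hairpins and 4 and 6 for the interactions, as without it. No paired analysis of the controls of the lines was possible because the block is a number within a line and so holds the line itself. With the length of all exons, chosen after seeing the data, 14 of 60 ranks of level within a group moved by 1 place. SLC40A1 in BE2C (12 to 42 counts per control or shAhR-1 library) limits what can be said of it.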

Other observations

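Several genes of the wider iron lists outside the naming rule were picked after their values had been seen. HAMP, which encodes the hormone hepcidin that removes ferroportin from the cell surface, had counts of 8, 8 and 2 in BE2C control, 4, 2 and 10 with the label shAhR-1 and 248, 280 and 247 with shAhR-2. It rose there by 5.25 ± 0.32 (log2, edgeR adjusted p = 4.05e-16). In Kelly it had at most 6 counts in a library and was not tested. The 5 hepatocyte markers, HAMP among them, summed to between 5.99 and 6.76 CPM in BE2C shAhR-2, of which HAMP was 5.76 ± 0.458 CPM (SD, n = 3).

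STEAP3, the endosomal ferrireductase that prepares transferrin iron for export from the endosome, split by hairpin in both lines. In BE2C it fell by 0.90 ± 0.097 in the libraries labelled shAhR-1 and rose by 0.61 ± 0.089 with shAhR-2, and in Kelly it fell by 1.38 ± 0.11 and rose by 1.18 ± 0.091 (edgeR, largest adjusted p = 2.55e-07). SLC39A14, a plasma membrane iron and zinc importer, fell in the libraries labelled shAhR-1 by 0.95 ± 0.034 in BE2C and 1.12 ± 0.031 in Kelly. KEAP1, which restrains the activator of FTH1 and HMOX1 encoded by NFE2L2, fell with shAhR-2 by 1.16 ± 0.051 in BE2C and 1.35 ± 0.041 in Kelly. It rose in the libraries labelled shAhR-1 by 0.16 ± 0.048 and 0.41 ± 0.038. NFE2L2 itself rose with shAhR-2 by 0.20 ± 0.044 in BE2C and fell by 0.16 ± 0.044 in Kelly. Of the 6 listed regulators of ferritin and haem oxygenase, 5 rose and 1 fell with shAhR-2 in BE2C (38% and 37.2% of all genes). In Kelly 2 rose and 2 fell (37.2% and 38.2% of all genes). Their part in the values of FTH1 and HMOX1 was not tested. HMOX2, the constitutive haem oxygenase, fell with shAhR-2 by 1.65 ± 0.078 in BE2C and 1.03 ± 0.078 in Kelly. The iron-sulfur factors GLRX5 and FDX1 fell with shAhR-2 in both lines, GLRX5 by 1.33 ± 0.052 and 1.07 ± 0.051 and FDX1 by 1.45 ± 0.078 and 1.24 ± 0.089.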
